A study of Mus musculus with 8 samples.

Results

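Regulators of DNA methylation and Polycomb repression, 10 in number and chosen by name, were followed through haematopoietic stem and progenitor cells of the mouse across age. They are Dnmt1, Dnmt3a, Dnmt3b, Tet1, Tet2, Tet3, Asxl1, Ezh1, Ezh2 and Bmi1, which make up 10 of the 32285 genes in the deposited matrices. Bone marrow was taken fresh from wild-type mice, and cells negative for lineage markers and positive for c-Kit were profiled by droplet single-cell RNA sequencing, with a library for each mouse. The 8 mice comprised 4 ages with a male and a female each. Young mice were 14 weeks old and middle-aged mice 50 weeks, while the old male was 78 weeks old, the old female 79 weeks and the very old mice 95 weeks. Old and very old mice were averaged as older mice (n = 4) and compared with young mice (n = 2), because the sources used here do not tie an old group to these animals. The age range that the study's methods give for old female mice takes in the very old age here and not the old one. With 1 mouse of each sex at an age, every comparison of ages rests on few animals.

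DNA methyltransferases place methyl groups on cytosine: Dnmt1 copies existing marks onto newly made strands during replication, and Dnmt3a and Dnmt3b set marks at new sites. TET enzymes (Tet1, Tet2 and Tet3) oxidise methylcytosine and so start its removal. Polycomb repressive complex 2 (PRC2) methylates lysine 27 of histone H3 through Ezh1 or Ezh2, Polycomb repressive complex 1 (PRC1) with Bmi1 ubiquitinates histone H2A, and Asxl1 serves the deubiquitinase Bap1 that removes that mark. Mutation of DNMT3A, TET2 or ASXL1 in blood stem cells is a well known route to clonal haematopoiesis.

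The libraries held 59136 cells after a filter on 200 detected genes, with totals of 83062003 to 150135029 unique molecular identifiers (UMIs) and a median of 8505 to 14951 UMIs per cell. Any pair of libraries shared 6 to 27 cell barcodes. Xist was at 26 UMIs or fewer in each male library and at 142958 or more in each female library, as their labels state. The files hold no cell annotation, so cells were clustered without the 10 genes and named from marker lists. Of 28 clusters, 15 were named and fell into 8 classes, and 25500 cells stayed unnamed (35.8% to 49.3% of a mouse's cells). Labels place the 95-week libraries in a library series of their own, so series and that age cannot be told apart. Both 95-week mice are among the older mice, so comparisons of older with young mice are partly mixed with series as well.

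HSC-like cells (4424 cells, 373 to 811 per mouse) formed a single cluster led by Sult1a1, Meg3, Procr, Nupr1 and Nkx2-3, among which Procr is a stem cell marker and Nupr1 a stress gene. Their median depth was lower in older mice (6947 to 8073 UMIs per cell) than in young mice (8670 to 9233). Multipotent progenitor-like cells (5405 cells) were a single cluster too, led by Dntt, a marker on the lymphoid progenitor list. Its 50 leading genes held 3 multipotent and 1 lymphoid progenitor markers. Without Harmony, a cluster led by Dntt was named lymphoid progenitor-like, so levels of this class may not hold for multipotent progenitors in general. Levels below are UMIs of a gene summed over the cells of a class in a mouse, per 1000000 UMIs of that class (CPM), so they are shares of a cell's RNA and not molecules per cell. A gene was called when the edgeR quasi-likelihood test on those sums, with trimmed mean normalisation and Benjamini-Hochberg adjustment over all genes tested, gave an adjusted p under 0.05.

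All 10 genes were detected in each class of each mouse. In GRCm38 coordinates, Dnmt1 (ENSMUSG00000004099) lies at chr9:20907209-20959888 on the minus strand. Dnmt3a (ENSMUSG00000020661) lies at chr12:3806007-3914443 and Dnmt3b (ENSMUSG00000027478) at chr2:153649450-153687730, both on the plus strand. The TET genes lie on the minus strand, Tet1 (ENSMUSG00000047146) at chr10:62804570-62908996, Tet2 (ENSMUSG00000040943) at chr3:133463679-133545139 and Tet3 (ENSMUSG00000034832) at chr6:83362373-83459084. Asxl1 (ENSMUSG00000042548) lies at chr2:153345829-153404007 and Bmi1 (ENSMUSG00000026739) at chr2:18677018-18686629, both on the plus strand. Ezh1 (ENSMUSG00000006920) lies at chr11:101191115-101226463 and Ezh2 (ENSMUSG00000029687) at chr6:47530139-47595341, both on the minus strand. A gene on the other strand overlaps Dnmt3a, Dnmt3b, Tet2, Tet3 and Asxl1 in the files, and whether counting used strand is not given in the sources used here, so these 5 levels may hold reads of the overlapping gene.

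Averaged over the 8 mice of all ages, HSC-like cells had the highest level of Ezh1 and the lowest of Ezh2 and Dnmt1 among the 8 classes. Ezh1 was at 24.97 ± 6.33 CPM (SD, n = 8 mice) in HSC-like cells, from 16.8 to 33.6, and next highest at 13.7 ± 1.96 in multipotent progenitor-like cells. HSC-like cells exceeded multipotent progenitor-like cells in 8 of 8 mice, by 0.84 on the log2 scale (exact sign-flip permutation test, two-sided, adjusted p = 0.0365 over the 70 neighbouring pairs of classes compared). Granulocyte progenitor-like cells had the lowest Ezh1 level, 4.44 ± 1.18. Counted per cell, too, HSC-like cells had the most Ezh1 UMIs (0.210 ± 0.0407) although they were shallow, ahead of erythroid-like cells (0.185 ± 0.0343).

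Ezh2, the catalytic subunit that dividing cells use most, was lowest in the HSC-like cells. It was at 57.2 ± 19.1 in HSC-like cells, 86.1 ± 9.002 in granulocyte progenitor-like cells and 196.2 ± 9.68 in erythroid-like cells, the highest class. Erythroid-like cells exceeded the next class, megakaryocyte-like cells (170.6 ± 13.3), in 8 of 8 mice (exact sign-flip permutation test, adjusted p = 0.0365). HSC-like cells lay below granulocyte progenitor-like cells in 7 of 8 mice, which did not pass the same exact permutation test (adjusted p = 0.0684). In young mice the levels overlapped, at 82.6 ± 2.74 in HSC-like and 82.4 ± 3.83 in granulocyte progenitor-like cells (n = 2), while in older mice they did not, at 42.6 ± 10.8 against 86.1 ± 12.04 (n = 4). The order from megakaryocyte-like to multipotent progenitor-like cells, with 5 classes between 121.6 and 170.6, held no neighbouring pair that passed.

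Among the methyltransferases, Dnmt1 ranged from 69.5 ± 20.2 in HSC-like to 169.9 ± 12.7 in megakaryocyte-like cells, which exceeded the next class in 8 of 8 mice. Its place in HSC-like cells differed by age as well. Young mice averaged 88.3 ± 12.4 in HSC-like and 82.5 ± 0.194 in granulocyte progenitor-like cells (n = 2), and older mice 53.3 ± 11.7 and 87.2 ± 12.5 (n = 4). Dnmt3a had its highest levels in HSC-like (43.2 ± 8.17), multipotent progenitor-like (42.3 ± 4.34) and megakaryocyte-like cells (36.6 ± 3.07), and its lowest in erythroid-like cells (12.98 ± 2.57). Neither neighbouring pair among the 3 highest classes passed the permutation test. Dnmt3b peaked in multipotent progenitor-like cells at 41.4 ± 4.76, above HSC-like cells (33.8 ± 6.20) in 8 of 8 mice with a log2 difference of 0.30 (exact permutation, adjusted p = 0.0365). It was lowest in dendritic progenitor-like cells, where its 40 UMIs over 8 mice, 1 of them from the sparsest mouse, give little precision.

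The 3 TET genes each had an order of their own. Tet1 was at 30.2 ± 5.06 in HSC-like, 27.6 ± 3.64 in multipotent progenitor-like, 23.9 ± 3.31 in basophil and mast cell-like and 20.4 ± 2.24 in megakaryocyte-like cells, and at 7.81 ± 5.32 or less in the other 4 classes. The step down from megakaryocyte-like to dendritic progenitor-like cells, 1.47 on the log2 scale, was found in 7 of 8 mice (exact permutation, adjusted p = 0.0476), and no other neighbouring pair of Tet1 passed. Tet2 was highest in dendritic progenitor-like cells (33.4 ± 5.57) and next in basophil and mast cell-like cells (22.95 ± 3.36), with HSC-like cells lower at 14.5 ± 3.21 and erythroid-like cells last at 7.86 ± 0.605. Tet3 likewise peaked in dendritic progenitor-like cells (60.0 ± 15.1) but was lowest in granulocyte progenitor-like cells (15.1 ± 3.41). For both Tet2 and Tet3 the dendritic progenitor-like cells exceeded the next class in 8 of 8 mice (exact permutation, adjusted p = 0.0365). These are log2 levels with 0.5 UMIs added, which weigh more in this small class of 523 cells, so a count of mice on CPM may differ.

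Asxl1 and Bmi1 were the flattest. Asxl1 lay between 31.6 and 34.3 in 6 classes, whose neighbours did not differ beyond their spread, and lower in monocyte progenitor-like (22.4 ± 2.32) and granulocyte progenitor-like cells (14.7 ± 2.50). Bmi1 ranged from 8.87 ± 2.75 in dendritic progenitor-like to 19.6 ± 3.63 in HSC-like cells, and only its step from monocyte to granulocyte progenitor-like cells passed among its 7 neighbouring pairs. Over all 10 genes, 23 of 70 neighbouring pairs passed, and 0.00781 was the smallest p that 8 mice allow.

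**Figure D1:**
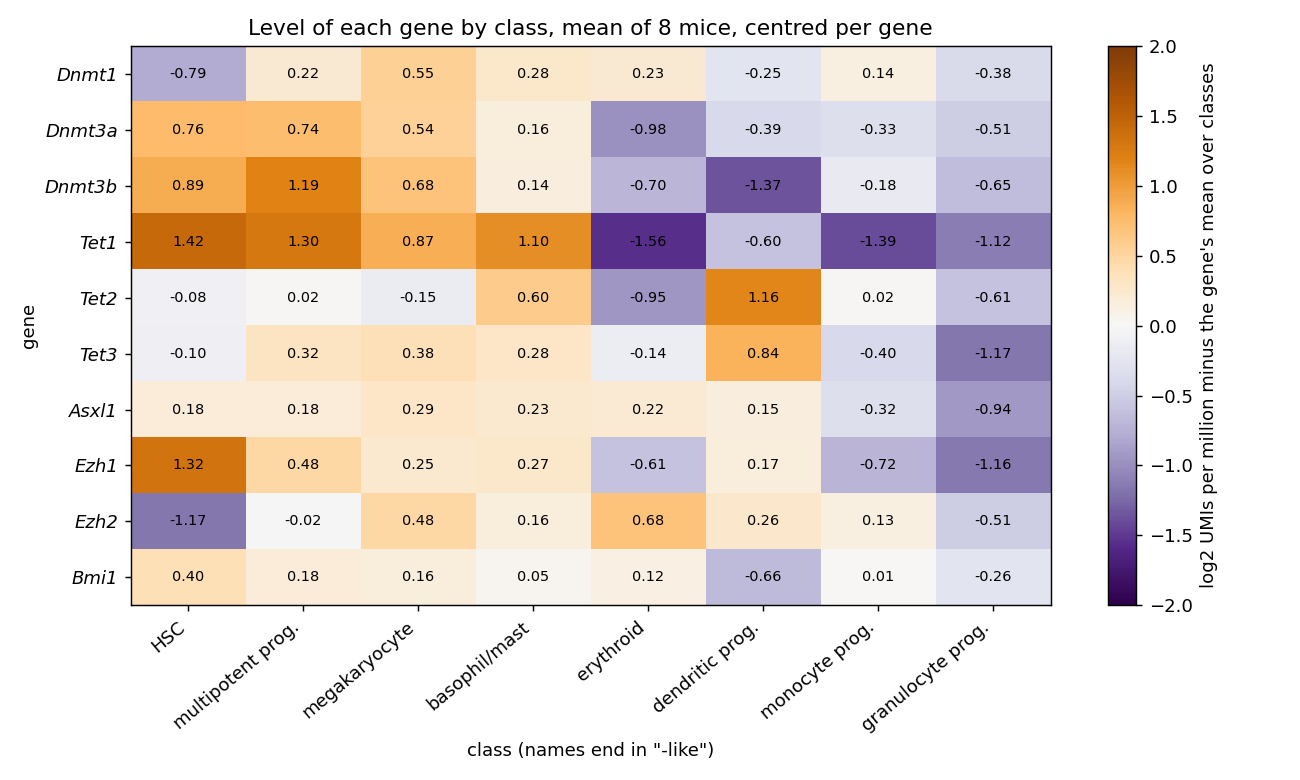
Level of each gene (rows) in each class (columns), as the mean over 8 mice of log2 CPM minus the gene's mean over the classes; brown is higher and purple lower. HSC-like cells carry the highest value of Ezh1 (24.97 CPM) and the lowest of Ezh2 (57.2) and Dnmt1 (69.5), while Tet2 and Tet3 are highest in dendritic progenitor-like cells.

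In the edgeR fit of all classes with mouse as a block, HSC-like cells were compared with each other class. Most genes differ between classes, so the counts are read against that background. Against multipotent progenitor-like cells 1 of the 10 genes was higher and 4 lower (60.9% of all genes tested were called), and against megakaryocyte-like cells 4 and 3 (69.5%). Against erythroid-like cells 5 were higher and 4 lower (86.4%), against basophil and mast cell-like cells 4 and 4 (67.1%), and against dendritic progenitor-like cells 5 and 4 (68.1%). Against granulocyte progenitor-like cells 6 were higher and 2 lower (83.3%), and against monocyte progenitor-like cells 5 and 3 (83.0%). The shares called among the 10 genes were thus near those of all genes, so the counts show nothing particular to these genes. The directions below are descriptions. Calls over all genes went both ways, with 5923 higher and 5255 lower against erythroid-like cells. How many of all genes had the same direction against all 7 classes was not counted. Ezh1 was higher in HSC-like cells than in each of the 7 other classes, by log2 fold changes of 0.78 to 1.93 and in 8 of 8 mice each time. Ezh2 was lower than in all 7, by -1.16 to -2.12, and Dnmt1 by -0.65 to -1.34, each in 8 of 8 mice except against granulocyte progenitor-like cells (7 of 8). These contrasts pool the ages, and against granulocyte progenitor-like cells the CPM of Ezh2 and Dnmt1 in young mice did not show a lower level, as given above. The classes were formed from other genes of the same cells.

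Scaling bears on the smaller of these differences. Without the trimmed mean factors the median of all genes for HSC-like against granulocyte progenitor-like cells moved from 0.13 to 0.67, and against erythroid-like cells from 0.09 to 0.39. Ezh1 then kept its direction (2.48 and 1.95), as did Ezh2 (-0.62 and -1.82), Dnmt1 (-0.39 and -0.997) and Tet1 (2.51 and 3.02). Against erythroid-like cells, Tet3 (-0.25, called) and Asxl1 (-0.34, called) were at 0.05 and -0.05 without those factors and no longer called, so no direction is given for them. Calls were gained as well, for Bmi1 (0.14 to 0.68) and Tet2 (-0.01 to 0.53) against granulocyte progenitor-like cells and for Bmi1 (-0.01 to 0.29) against erythroid-like cells, all higher in HSC-like cells. The counts of higher and lower genes went from 6 and 2 to 8 and 2 and from 5 and 4 to 6 and 2, so no direction is given for Bmi1 and Tet2 against these classes either, except Tet2 against erythroid-like cells, which was called higher both ways (0.59 and 0.89). Shares of cells at a common depth of 4500 UMIs showed the same order for Tet1, with a UMI in 12.3% of HSC-like and 1.91% of erythroid-like cells (21.7% and 9.41% before thinning, at median depths of 6947 to 10342.5 and 19301 to 38125.5 UMIs). For Ezh1 the thinned shares were 10.7% in HSC-like and 1.95% in granulocyte progenitor-like cells. Cells under 4500 UMIs were left out, 429 HSC-like, 980 erythroid-like and 64 granulocyte progenitor-like. No class here is known to lack either gene, so the share that free RNA gives was not measured.

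Next, the 10 genes were compared between older and young mice within HSC-like cells. Dnmt1, Dnmt3a, Dnmt3b, Tet3 and Ezh2 fell, Ezh1 rose, and Tet1, Tet2, Asxl1 and Bmi1 were not called. The 6 calls among 10 compare with 11.3% of all 11598 genes tested. The median log2 fold change of the 10 genes was -0.34, against -0.01 over all genes. In 6 of the 10 genes (Dnmt1, Dnmt3a, Dnmt3b, Tet1, Tet3 and Ezh2) every older mouse lay below both young mice. Older and young values did not overlap, in either direction, for 38.5% of all genes.

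Ezh2 had the largest change. Its level was 80.7 in the young male and 84.5 in the young female, 64.8 and 57.4 in the middle-aged male and female, 30.9 and 52.3 in the old male and female, and 35.9 and 51.1 in the very old male and female. All 4 older mice, and both middle-aged mice, lay below both young mice, and the males were the lowest of the older mice. The means were 82.6 ± 2.74 (SD, n = 2) in young and 42.6 ± 10.8 (n = 4) in older mice, a log2 fold change of -0.86 ± 0.17 (SE, adjusted p = 0.0095). Between 194 and 375 Ezh2 UMIs per mouse lie behind these values.

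Ezh1, the subunit that can stand in for Ezh2 and prevails in resting cells, was the only one of the 10 genes to rise. Its level was 23.6 and 20.1 in the young male and female, 16.8 and 21.9 in the middle-aged, 33.6 and 32.4 in the old and 30.5 and 20.8 in the very old male and female. The very old female lay between both young values, and the other 3 older values exceeded them. The log2 fold change was 0.55 ± 0.17 (SE, adjusted p = 0.0495), just inside the threshold, on 79 to 211 UMIs per mouse.

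Dnmt1, the maintenance methyltransferase, was at 79.5 and 97.02 in the young male and female, 91.9 and 74.4 in the middle-aged, 41.1 and 56.3 in the old and 47.4 and 68.2 in the very old male and female. The middle-aged mice overlapped the young mice, whereas the older mice lay below all 4 of them. The log2 fold change of older against young mice was -0.62 ± 0.16 (adjusted p = 0.0317).

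Of the de novo methyltransferases, Dnmt3a was at 51.5 and 58.6 in the young male and female and at 35.2 to 45.1 in the 4 older mice. Dnmt3b was at 44.8 and 41.5 in the young male and female and at 27.8 to 32.5 in the older mice. At 50 weeks the values were 41.1 and 39.7 for Dnmt3a and 32.0 and 33.8 for Dnmt3b in the male and female. Neither the middle-aged nor the older values overlapped those of young mice, although middle-aged against young mice was not called for Dnmt3a (adjusted p = 0.216) or Dnmt3b (adjusted p = 0.328) by edgeR. The log2 fold changes of older against young mice were -0.39 ± 0.12 for Dnmt3a (adjusted p = 0.0432) and -0.42 ± 0.12 for Dnmt3b (adjusted p = 0.0384).

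Tet3, a demethylation enzyme, fell by about as much as Dnmt1. It was at 40.6 and 48.1 in the young male and female, 26.1 and 34.0 in the middle-aged, 26.8 and 33.1 in the old and 18.5 and 28.0 in the very old male and female. Males were lower than females at each age, and no other age overlapped the young mice. The log2 fold change was -0.63 ± 0.13 (adjusted p = 0.00437). Tet1 was at 33.6 and 37.7 in young and 24.4 to 29.5 in older mice without overlap, with a log2 fold change of -0.29 ± 0.14 that did not pass (adjusted p = 0.194). Tet2 was at 14.4 and 17.8 in young and 10.7 to 18.1 in older mice, which overlapped (-0.04 ± 0.22, adjusted p = 0.944). Between 43 and 105 Tet2 UMIs per mouse lie behind these values.

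Asxl1 and Bmi1 overlapped as well. Asxl1 was at 28.3 and 31.8 in young and 26.9 to 33.9 in older mice (0.14 ± 0.13, adjusted p = 0.541). Bmi1 was at 17.96 and 26.99 in young and 14.6 to 20.6 in older mice (-0.19 ± 0.20, adjusted p = 0.598).

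**Figure D2:**
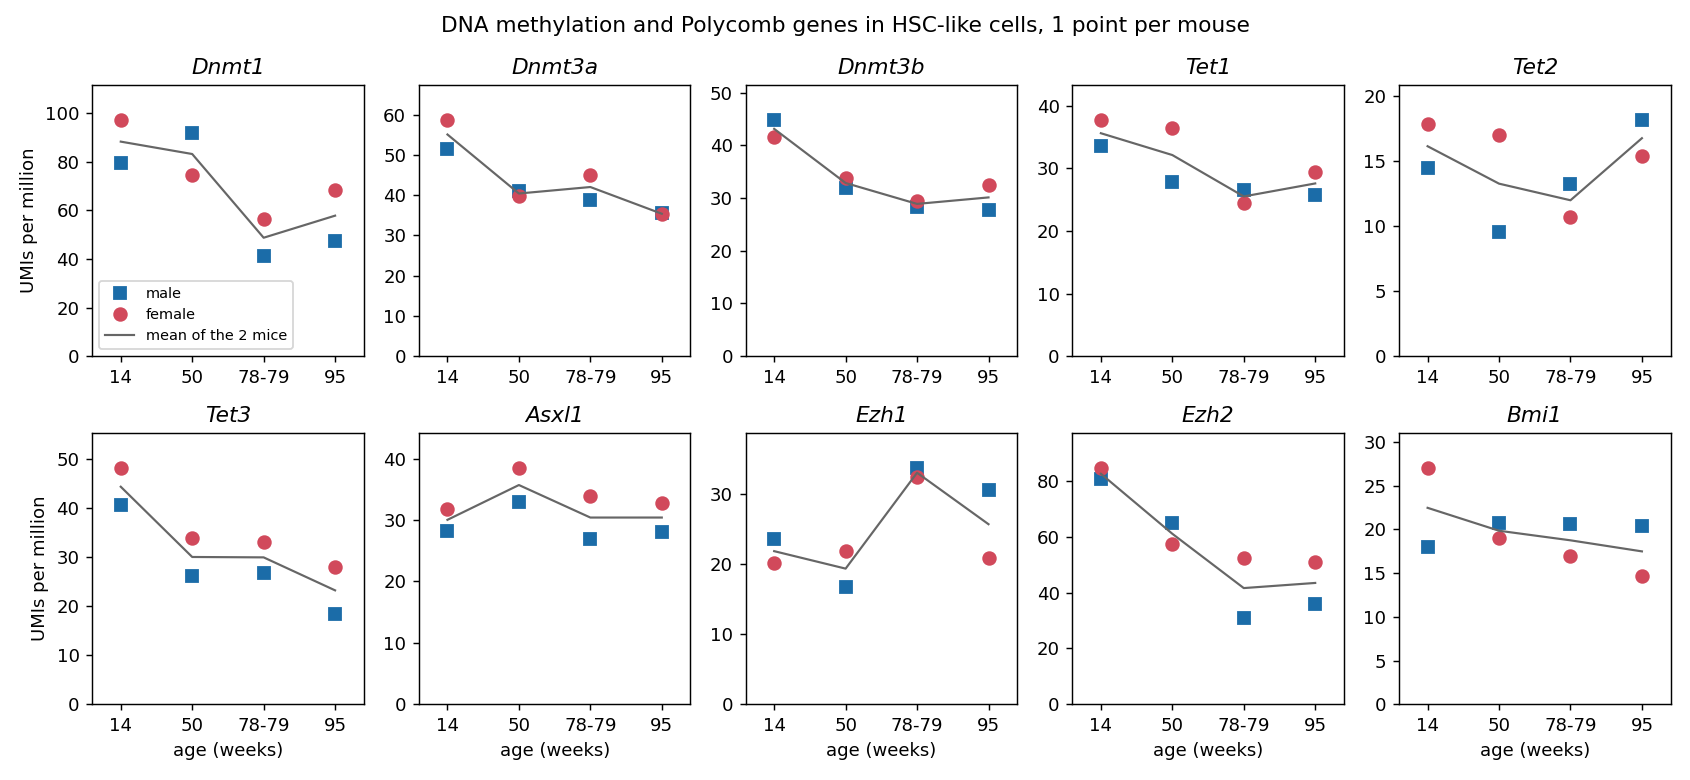
Level of each of the 10 genes in HSC-like cells (CPM) by age group in weeks, with 1 point per mouse (square male, circle female) and a line through the mean of the 2 mice. Ezh2 goes from 80.7 and 84.5 in young mice to between 30.9 and 52.3 in the 4 older mice, while Ezh1 goes from 20.1 and 23.6 to between 20.8 and 33.6.

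The firmness of these calls differed between genes. Ezh2 was called in 21 of 22 alternative settings and Tet3 in 19, but Dnmt1 in 10, Dnmt3b in 9, Dnmt3a in 8 and Ezh1 in 7. All 6 kept their direction throughout. Leaving out the young male removed every call, and leaving out the young female, the old male or the very old male left 2 calls and the old female 3. Without a young mouse, 1 young sample remains and is assumed to vary like the other age groups. Whether the lost calls come from that or from the mouse left out was not tested. Without the trimmed mean factors the median of all genes moved from -0.01 to -0.13 and Ezh1 was no longer called (0.42, adjusted p = 0.116), whereas the 5 falls were.

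Other genes of the HSC-like cells moved with age too. The HSC marker list summed to 1358 to 1523 CPM in young and 1687 to 2304 in older mice, with 13 of its 17 genes called higher and none at 0. The multipotent progenitor list summed to 2102 to 2645 in young and 880.5 to 1439 in older mice, with 0 of 9 genes higher and 2 lower (Sox4 and Satb1). The megakaryocyte list summed to 356 to 376 in young and 473 to 671 in older mice, with 5 of its 10 tested genes called higher and Gp6 at 0. The lymphoid progenitor list summed to 140.6 to 146.3 in young and 56.9 to 83.7 in older mice, without overlap, with 2 of 5 tested genes lower (Dntt and Ighm) and Pax5 and Il2ra at 0. Of the dendritic progenitor list 3 of 7 tested genes were higher (Cd74, H2-Aa and H2-Eb1), with sums of 523.1 to 747.6 in young and 754.3 to 818.2 in older mice and Cd209a at 0. Of the granulocyte progenitor list 3 of 10 were higher (Prtn3, Gstm1 and Srgn), and its sums overlapped (1702 to 2130 and 1893 to 2588). Of the monocyte progenitor list 2 of 8 were lower (Ly86 and Ctss), and its sums overlapped too (302.8 to 384.8 and 291.3 to 365.5). The basophil and mast cell list summed to 844.9 to 865.6 in young and 1153 to 1805 in older mice, without overlap, with 0 of 4 tested genes called by edgeR. Of the erythroid list 1 of 15 was lower (Hba-a2), with overlapping sums. Of the stroma and endothelium list 1 of 2 tested genes was higher (Kdr), with overlapping sums (32.6 to 33.9 and 31.6 to 39.1) and Cdh5 and Adipoq at 0. The eosinophil and mature lymphocyte lists, with 1 and 2 tested genes, had 0 called by edgeR. The part of these markers in the 6 calls was not tested. A UMI of the progenitor genes Flt3 or Cd48 was found in 68.4% and 51.5% of HSC-like cells in the young male and female, and in 9.05% to 26.1% in older mice. In the HSC-like cells with no UMI of either gene, a selection made after seeing the data, Ezh2 (-0.92, adjusted p = 0.00121) and Tet3 (-0.62, adjusted p = 0.0325) were still called by edgeR. The other 4 were not, at -0.48 for Dnmt1, -0.37 for Dnmt3a, -0.53 for Dnmt3b and 0.62 for Ezh1 (adjusted p = 0.0661 to 0.159). How far the mix of cells inside the cluster bears on the 6 calls was not tested beyond this.

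Outside HSC-like cells, none of the 10 genes was called for older against young mice. Levels without overlap were found there too. All older mice were lower for Ezh2 in multipotent progenitor-like (-0.14 in mean log2 level) and megakaryocyte-like cells (-0.19). They were also lower for Dnmt3b in basophil and mast cell-like cells, and for Bmi1 in those and dendritic progenitor-like cells. All were higher for Dnmt1 in erythroid-like (0.18), Dnmt3a in megakaryocyte-like and Asxl1 in dendritic progenitor-like cells. With edgeR and with DESeq2, 0 genes were called in granulocyte progenitor-like cells (background 0.00944%), where 0 had an unadjusted p under 0.05, and in erythroid-like cells (0.0663%), where 1 did, Dnmt1 at 0.19 ± 0.07. Both tools likewise called 0 in multipotent progenitor-like (0.579%), monocyte progenitor-like (0.128%) and megakaryocyte-like cells (3.07%), each with 0 at an unadjusted p under 0.05. In basophil and mast cell-like cells (0.105%) both tools called 0 and Bmi1 had such a p (-0.46 ± 0.20). In dendritic progenitor-like cells, where 0.0% of genes were called and 7 of the 10 were tested, both called 0 and Asxl1 had such a p (0.68 ± 0.31). Over all genes, such a p was found for 864 of 12063 in erythroid-like, 725 of 10452 in basophil and mast cell-like and 244 of 7436 in dendritic progenitor-like cells. In the sums over all cells of a mouse (1.44%) both tools called 0, with 0 at an unadjusted p under 0.05 and log2 fold changes of the 10 genes around a median of -0.01.

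**Figure D3:**
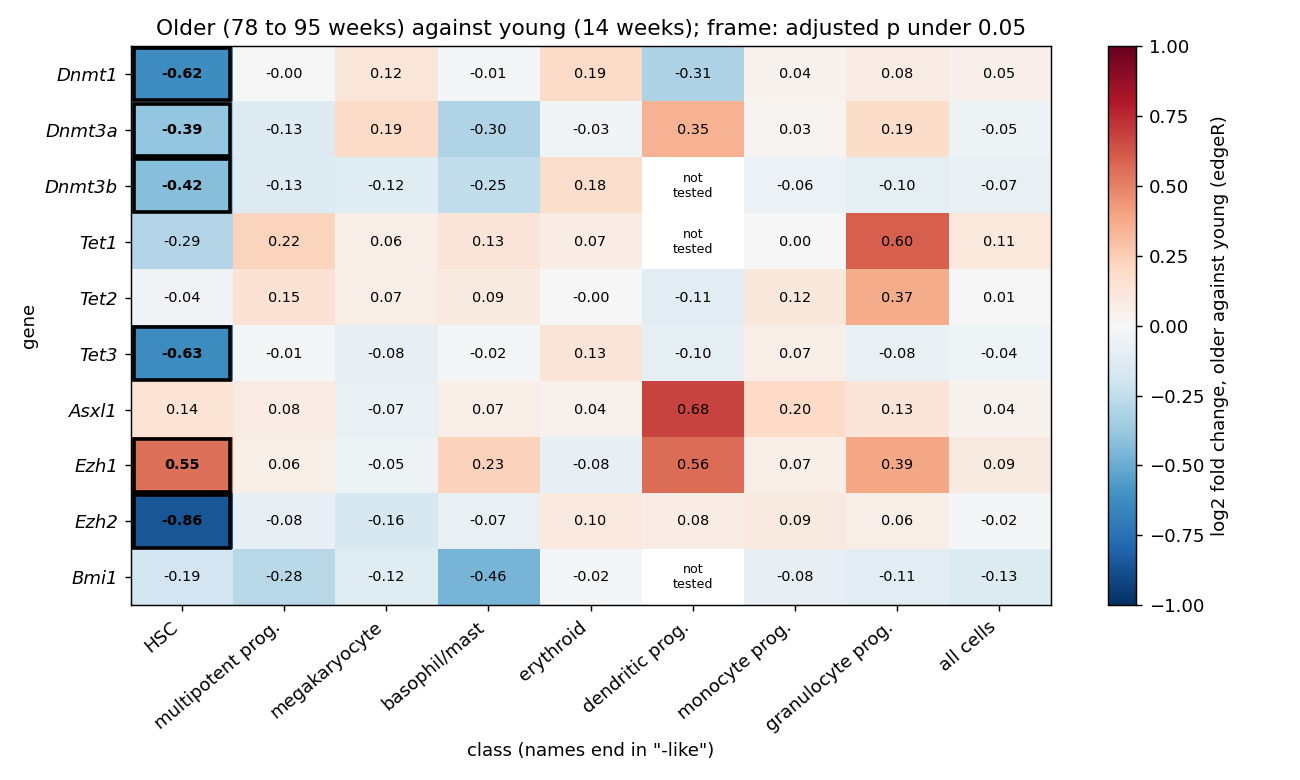
Log2 fold change of older against young mice from edgeR for each gene (rows) in each class and in all cells (columns), with red for higher and blue for lower in older mice; frames mark an adjusted p under 0.05. All 6 frames are in HSC-like cells, from -0.86 for Ezh2 to 0.55 for Ezh1.

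A call in one class and none in another does not show a difference, so the difference was tested as an interaction of class and age. Against granulocyte progenitor-like cells, the change with age was more negative in HSC-like cells for Dnmt1 (-0.69 ± 0.19, adjusted p = 0.0486) and Ezh2 (-0.92 ± 0.21, adjusted p = 0.0234), 2 of 10 genes where 1.43% of all genes were called. Of the 10, 5 had an unadjusted p under 0.05, as had 1455 of all 12399 genes, and DESeq2 called 0 of the 10. Against erythroid-like cells edgeR and DESeq2 called 0 (background 0.0228%), with 5 of 10, and 1440 of all 13178 genes, at an unadjusted p under 0.05. There the estimates were -0.99 ± 0.22 for Ezh2 (adjusted p = 0.166), -0.85 ± 0.18 for Dnmt1 (adjusted p = 0.137) and -0.80 ± 0.21 for Tet3 (adjusted p = 0.197).

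To compare the paired enzymes without any scaling between libraries, the ratio of Ezh1 to Ezh2 UMIs was taken in each mouse. In HSC-like cells its log2 was -1.77 and -2.06 in the young male and female, -1.95 and -1.38 in the middle-aged, 0.12 and -0.69 in the old and -0.23 and -1.29 in the very old male and female. Both young mice were below each of the 4 older mice, and in the old male Ezh1 UMIs outnumbered Ezh2 UMIs. The mean rose from -1.92 ± 0.21 to -0.52 ± 0.61, a difference of 1.39 with an exact two-sided permutation p of 0.133 (0.533 adjusted over 4 ratios), where the design allows no p below 0.0667. The other 3 ratios of HSC-like cells differed less between older and young mice, by 0.58 for Tet2 to Tet3, 0.23 for Dnmt3a to Dnmt1 and 0.04 for Dnmt3a to Dnmt3b (exact permutation p = 0.333, 0.467 and 0.933). Across classes the Ezh1 to Ezh2 ratio averaged -1.16 ± 0.81 in HSC-like cells, -3.15 ± 0.40 in multipotent progenitor-like cells and -4.93 ± 0.12 in erythroid-like cells, and the HSC-like values of all 8 mice lay above each value of every other class.

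**Figure D4:**
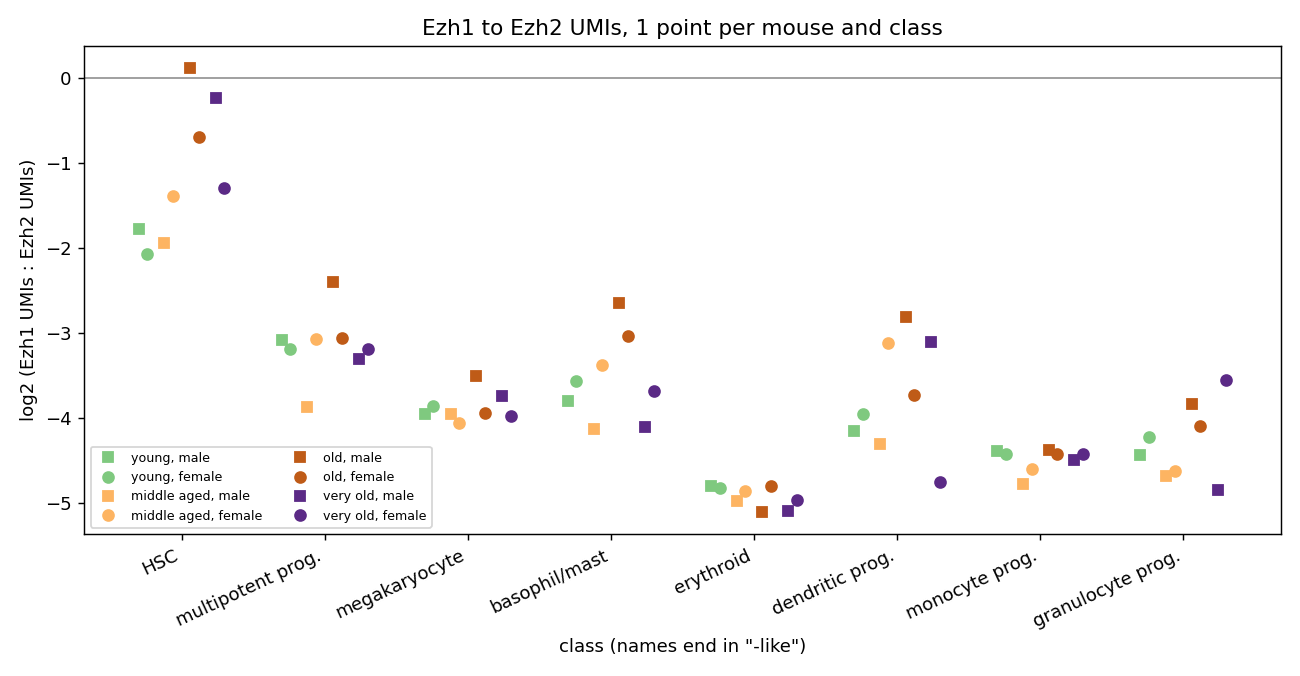
Log2 ratio of Ezh1 to Ezh2 UMIs in each class, with 1 point per mouse (colour for age, square male, circle female) and a line at equal UMIs. HSC-like cells lie highest, from -2.06 in the young female to 0.12 in the old male, and the classes' means go down to -4.93 in erythroid-like cells.

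Because Dnmt1 and Ezh2 are known to follow cell division, HSC-like cells were split by scores for S and G2/M phase built from lists that hold none of the 10 genes. A score above 0 was found in 474 of 4424 cells, and 103 of the 4424 lay within 0.02 of that threshold. The share with a positive score was 14.7% and 23.3% in the young male and female, 20.6% and 11.03% in the middle-aged, and 1.36% to 11.4% in the older mice, below both young mice. These shares rest on scores alone and on cells of unequal depth. In the same cells 11 of 38 S phase genes and 16 of 46 G2/M genes were called lower in older mice and none higher.

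Within a mouse, Dnmt1 was at 186.5 ± 12.9 in cells with a positive score and 48.2 ± 8.53 in the others, a log2 fold change of 1.87 ± 0.08 found in 8 of 8 mice. Ezh2 was at 155.0 ± 23.1 and 41.0 ± 11.6, a log2 fold change of 1.78 ± 0.08 found in 8 of 8 mice. Ezh1 went the other way, 18.5 ± 14.2 against 26.6 ± 5.74, with a log2 fold change of -0.85 ± 0.17 (edgeR, adjusted p = 1.09e-05). It was lower in 7 of 8 mice, and the old male, the exception, had 11 cells with a positive score and 4 Ezh1 UMIs in them. These 3 of 10 genes were called where 31.9% of all genes were, so the count is near the background and is not particular to the 10 genes. Dnmt3a, Dnmt3b, the 3 TET genes, Asxl1 and Bmi1 were not called, with log2 fold changes between -0.25 and 0.25. Among them Tet3 was higher with a positive score in 8 of 8 mice (0.12 ± 0.13) and Dnmt3b in 7 of 8 (0.25 ± 0.12).

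In the HSC-like cells without a positive score, older mice had less Ezh2 (-0.69, adjusted p = 0.00885), Tet3 (-0.65, adjusted p = 0.00252) and Dnmt3a (-0.45, adjusted p = 0.0187) by edgeR. A cell without a positive score may be dividing too at these depths, and the part of division in the changes with age was not tested. Dnmt1 in those cells was at -0.33 (adjusted p = 0.103), Dnmt3b at -0.39 (adjusted p = 0.0644) and Ezh1 at 0.46 (adjusted p = 0.0705). With cells holding a Flt3 or Cd48 UMI also left out, Ezh2 alone was called (-0.66, adjusted p = 0.033). The other 5 were then at -0.52 for Tet3, -0.31 for Dnmt3a, -0.35 for Dnmt3b, 0.67 for Ezh1 and -0.23 for Dnmt1, so the last was the furthest from its value over all HSC-like cells.

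**Figure D5:**
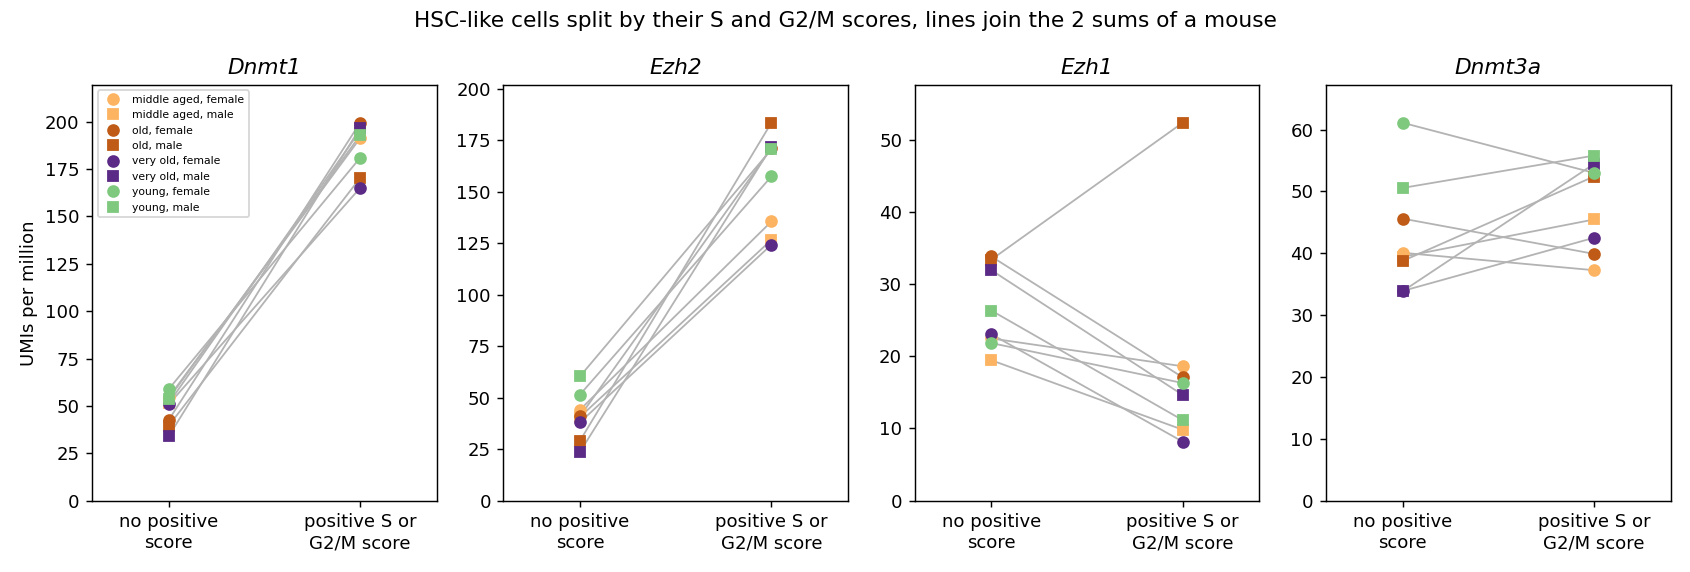
Levels of Dnmt1, Ezh2, Ezh1 and Dnmt3a (CPM) in HSC-like cells by whether the S or G2/M score was positive, with a line joining both sums of a mouse. Dnmt1 (48.2 to 186.5 on average) and Ezh2 (41.0 to 155.0) are higher with a positive score in all 8 mice, Ezh1 is lower in 7 of 8, and Dnmt3a has no common direction.

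The promoters of these genes were read for the words of E2F, the factor family of the G1 to S transition. RefSeq start sites of GRCm38.p6 give 14 windows for the 10 genes, each from 250 bases before to 50 bases after a start. TTTCCCGC, TTTCGCGC, TTTGCCGC or TTTGGCGC on either strand was present in 744 of 32851 promoters (2.265%). Among the 10 genes such a word was found at Ezh2 and at 1 of 3 starts of Dnmt1, the genes that were higher in cells with a positive score, and at no other. The stretches around the words are shown 5′ to 3′ on the gene's strand (minus for both), with the word in capitals. Positions count from the start base as 0, and the first Dnmt1 word is read from the opposite strand.
Ezh2, chr6:47595009-47595038, word at 3: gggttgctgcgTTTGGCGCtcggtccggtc
Dnmt1, chr9:20952824-20952853, word at -219: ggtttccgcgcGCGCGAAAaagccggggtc
Dnmt1, chr9:20952574-20952601, word at 33: gcggggcagcgTTTGGCGCgggctgtgc

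The 250 bases before the start of Ezh1, the gene that was lower in cells with a positive score, hold none of these words, nor CCAAT or TTTGAA on either strand, and are shown in lower case for comparison. The windows of Dnmt3a, Tet1, Tet2 and Bmi1, which were not called in the split, lack all of them too.
Ezh1, chr11:101226464-101226713, minus strand: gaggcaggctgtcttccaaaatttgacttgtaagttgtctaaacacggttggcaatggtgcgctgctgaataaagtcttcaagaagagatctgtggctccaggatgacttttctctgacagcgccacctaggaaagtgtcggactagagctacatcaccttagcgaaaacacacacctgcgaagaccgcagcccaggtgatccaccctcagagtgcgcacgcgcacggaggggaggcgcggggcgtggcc
CCAAT, present in 37.408% of all promoters, was found 3 times in the Ezh2 window, 5 and 3 times at the first and the third start of Dnmt1 and 1 time at Tet3. TTTGAA, the core of the cell cycle homology region and present in 17.893%, was found at the first start of Dnmt1, at Dnmt3b and at Asxl1. A matching word is a description of the sequence and was not tested for binding.

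Partner genes of the same pathways were followed from 6 lists. For older against young HSC-like cells, edgeR called 0 genes higher and 3 lower of 15 tested DNA methylation partners (5 had an unadjusted p under 0.05, and DESeq2 called 1). The 3 were Tdg, the glycosylase that removes oxidised methylcytosine (-0.74 ± 0.17, adjusted p = 0.0105), Idh2, which makes the TET co-substrate α-ketoglutarate (-0.50 ± 0.12, adjusted p = 0.0175), and Mbd3, a member of the NuRD complex (-0.36 ± 0.11, adjusted p = 0.0426). Of 9 tested PRC2 partners, 1 was lower and 0 higher, Eed, which binds the methylated histone (-0.44 ± 0.12, adjusted p = 0.0297), with DESeq2 calling 0. Of 20 PRC1 genes 1 was higher, Cbx7, a chromodomain subunit (0.69 ± 0.19, adjusted p = 0.0249), and 2 lower, Pcgf5 (-0.43 ± 0.11) and Kdm2b (-0.42 ± 0.12), with DESeq2 calling 0. Among 8 deubiquitinase partners of Asxl1 and 14 other genes of clonal haematopoiesis edgeR and DESeq2 called 0, with 2 and 3 at an unadjusted p under 0.05, and both called 0 of 2 H3K27 demethylases, with 0 at such a p. With 11.3% of all genes called, these shares are near the background for most lists, and the lists' medians lay between -0.19 and 0.14. An unadjusted p under 0.05 was found for 2996 of all 11598 genes.

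In the split by cycle score, where 31.9% of all genes were called, the partners divided further. Of 15 DNA methylation partners 8 were higher in cells with a positive score and 2 lower, led by Uhrf1, which brings Dnmt1 to replicated DNA (3.32 ± 0.12), and the remodeller Hells (2.99 ± 0.09). Among PRC2 partners, Phf19 was higher (2.25 ± 0.38) while the alternative subunits Phf1 (-1.54 ± 0.26) and Jarid2 (-0.72 ± 0.15) were lower. Of 9 PRC2 partners 6 were higher and 2 lower, of 20 PRC1 genes 4 and 3, of 8 deubiquitinase partners 1 and 1, of 2 demethylases 0 and 1 and of 14 genes of clonal haematopoiesis 4 and 2. Cbx7, the PRC1 gene that rose with age, was lower in cells with a positive score (-0.72 ± 0.22). These genes, and Mbd3, Pcgf5 and Kdm2b above, were chosen after their values were seen. Of 68 partners tested in the split, 57 had a promoter in the RefSeq table. An E2F word stood in a window of 6 of the 21 of these that were higher (Cdca7, Hells, Uhrf1, U2af1, Phf19 and Suz12), of 0 of 10 that were lower and of 0 of 26 that were not called. Counted by gene, 704 of 27025 genes of the RefSeq table had such a word. The scores were built from S phase and G2/M genes, and the share with a word among all genes higher with a positive score was not counted. Neither these partners nor Ezh2 and Dnmt1 were therefore set against it.

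The genes with the most similar pattern over the 64 sums of class and mouse were listed by Pearson's r of log2 levels among 7684 genes. These are descriptions across sums that share libraries and depth. Ezh2 was nearest to Mcm10 (0.95) and Pold1 (0.94), and Dnmt1 to Pola1 (0.94) and Prim1 (0.89), all genes of DNA replication. Ezh1 was nearest to Txnip (0.94) and Zbtb20 (0.94). Dnmt3a was nearest to Cxxc5 (0.92) and Bbx (0.92), Dnmt3b to Itih5 (0.90) and Mtf2 (0.90), and Tet1 to Cuedc1 (0.94) and Dapp1 (0.93). Tet2 was nearest to Tuba1a (0.90) and Ikbkb (0.89), and Tet3 to Mob1a (0.90) and Csk (0.90). Taf1 was among the nearest genes to Asxl1 (0.88). The r of Bmi1 with its nearest genes, Zc3h7b (0.79) and Smyd3 (0.79), was lower. Among the 10 genes, Dnmt3a and Tet1 had r = 0.89, Dnmt1 and Ezh2 0.83, Dnmt3a and Dnmt3b 0.82 and Ezh1 and Ezh2 -0.41.

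Middle age, sex and the step from old to very old gave few calls in HSC-like cells. For middle-aged against young mice, a comparison that shares its young mice with the one above, edgeR and DESeq2 called 0 of 10 genes (background 1.84%). Of these 10, 4 had an unadjusted p under 0.05, Tet3 (-0.49 ± 0.15), Dnmt3a (-0.36 ± 0.14), Asxl1 (0.33 ± 0.14) and Dnmt3b (-0.31 ± 0.14). The value for Dnmt1 was 0.02 ± 0.18. For males against females both tools called 0 (background 0.578%), with 2 genes at an unadjusted p under 0.05, Tet3 (-0.37 ± 0.11) and Asxl1 (-0.23 ± 0.10). For very old against old mice both called 0 in HSC-like cells (background 0.0862%), and Tet2 had an unadjusted p under 0.05 (0.54 ± 0.25). Of all 11598 genes, 1676 had such a p for middle-aged against young mice, 1267 for males against females and 913 for very old against old mice. In the sums over all cells, Ezh2 was higher in very old than in old mice (0.40 ± 0.08, edgeR adjusted p = 0.026), 1 of 10 genes where 13.4% of all genes were called. Of the 10, 6 had an unadjusted p under 0.05 there, as had 5263 of all 15361 genes. DESeq2 called Ezh2 and Dnmt1 among 3032 genes in all, and the difference in Ezh2 cannot be told apart from the library series. The mix of cells differed as well: erythroid-like cells, the class with the most Ezh2, made up 8.27% and 9.12% of the old male and female libraries and 23.2% and 21.2% of the very old ones, and the part of this in the Ezh2 difference was not tested.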

How the data were processed

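Single-cell libraries of 8 mice, each from 1 mouse, were examined. The authors ran Cell Ranger, and the deposited values are UMI counts by gene and cell barcode, not normalised. The file headers give version 6.0.0 and the study's methods another version, and per the labels the build was mm10. Of 32285 gene identifiers, 32158 matched GENCODE vM21. Cells with 200 or more genes were kept, a filter that the study's methods state. The 10 genes, the marker lists and the partner lists were chosen with earlier results of these data known.

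Cells were scaled to 10000 UMIs, and 2000 variable genes without the 10 genes, their partners and sex-linked genes gave 30 principal components. Libraries were aligned by a Harmony procedure written for this work (θ = 1), and cells clustered by Leiden (scanpy 1.11.5, leidenalg 0.10.2, 20 neighbours, resolution 0.8). A cluster was named when 3 or more markers of a class, and more than of any other class, were among its 50 leading genes. No other class could have more markers among the 10 leading genes, and median depth had to reach the library's median divided by 3. The rule on the 10 leading genes alone left out, among others, a cluster of 2614 cells with 4 multipotent progenitor markers. Nusap1 of the G2/M list was among its leading genes, and multipotent progenitor-like levels do not cover these cells. The rules on depth and ties in this naming were set after the clusters were seen. Scrublet called under 0.5% of cells in 3 libraries, so no doublets were removed except in an alternative that left out the expected share (0.8% per 1000 cells).

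UMI counts were summed per mouse and class and tested with edgeR 4.0.16 (quasi-likelihood, filterByExpr, TMM) on age group and sex, over all 8 mice. Since each age has 1 mouse of a sex, sex is also the replicate number, and the labels name no litter or day that numbers would share. Comparisons of classes used mouse as a block. DESeq2 1.42.0 was an alternative. Errors of fold changes are the fold change divided by the root of the test's F. Values per mouse were compared by exact permutation tests, with 0.5 UMIs added before log2 levels. Depth, 79 to 211 UMIs per mouse for Ezh1 in HSC-like cells, sets the precision. The p-values of comparisons of ages measure the spread between these mice after the sex term. Where mouse was a block (classes, interactions and the cycle split), they measure how differences within a mouse vary from mouse to mouse. Genes named are the 10, the 3 largest called rises and falls of the partner lists and the 2 genes most similar to each of the 10, and others as said; 1 gene of the last kind is not reported here. Tests were run on simulated counts, where the share of false calls for older against young HSC-like cells was above the nominal one, a limit on calls near the threshold. Calculations used Python 3.11.15 and R 4.3.3.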

Additional observations from a re-analysis of the deposited data

Results flagged for a closer look

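The change with age differed between HSC-like and granulocyte progenitor-like cells for Dnmt1 (-0.69 on the log2 scale) and Ezh2 (-0.92), by the edgeR test of the interaction of class and age described above, which DESeq2 did not call. In 90 groups of the 4 older mice, 1 for each gene in each class or in all cells, 8 held a mouse far from the other 3, with a gap to the nearest mouse that took most of the group's range (Dixon's test). Chance gives about 1 in 20 such groups. The old male was the low mouse in 5 of them, for Asxl1 in all cells (24.9 CPM, next 29.9), Asxl1 in erythroid-like cells (27.8, next 33.3), Tet1 in granulocyte progenitor-like cells (2.82, next 7.34), Ezh1 in monocyte progenitor-like cells (5.70, next 6.37) and Ezh2 in multipotent progenitor-like cells (89.7, next 120.4). The very old female was the high mouse for Dnmt1 (109.8, next 84.0) and Asxl1 (49.4, next 35.4) in dendritic progenitor-like cells, where some mice have few cells. The old female was the high mouse for Bmi1 in multipotent progenitor-like cells (16.8, next 14.9). No such mouse was found in the HSC-like levels of the 10 genes.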

How the results depend on the processing

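For older against young HSC-like cells, edgeR called 1313 of all 11598 genes and DESeq2 601, so calls over all genes fell with DESeq2 too. For the other settings below, calls over all genes are not given. A lower count there need not be particular to the genes followed here. The 6 calls of older against young HSC-like cells depended on the processing. The count was 2 with DESeq2 (Ezh2 and Dnmt1), 2 without Harmony, 2 without the old mice, 2 with age in weeks, 3 without cells of a positive S or G2/M score, and, in alternatives chosen after seeing the data, 2 without cells holding a Flt3 or Cd48 UMI and 1 without both kinds of cells. Leaving out 1 mouse gave 0 to 6. The sex term is the replicate block, and 2 calls were left without it. Sex and number cannot be told apart, so no further pairing was tested. Tet2 turned to 0.11 without Harmony, 0.24 without the old mice and 0.13 with age in weeks, and ranged from -0.19 to 0.0891 with 1 mouse left out, and Bmi1 from -0.62 to 0.29. Without the old mice, 1 gene was called in erythroid-like cells, and DESeq2 called 0 for the difference between HSC-like and granulocyte progenitor-like cells and 2 for very old against old in all cells. The cause was not tested. The other 88 counts under alternatives stayed within 1.5 times. The alternative without cells of a positive score was not run for granulocyte progenitor-like and erythroid-like cells or the comparisons with them, where a mouse keeps as few as 11 cells of either class (minimum 20), and was not tried in other classes. Counts of Ezh1, Tet2 and Bmi1 per mouse limit what could be detected.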
